A study of Mus musculus with 24 samples.

Results

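mt-Rnr2 is the mitochondrial gene of 16S rRNA, the RNA of the large subunit of the mitochondrial ribosome. Its members here are all cytosines listed for either strand in the gene, which is 1582 bp long on chromosome M of mm10. They number 485 of 5829 listed cytosines, 269 of 3890 on the L strand and 216 of 1939 on the H strand. The reference sequence of the gene holds 560 cytosines, and 75 of them, all between nt 2003 and nt 2173, were not analysed here. By the RefSeq annotation, the gene fills the space between the tRNA genes TrnV (chrM:1025-1093) and TrnL1 (chrM:2676-2750) and encodes no protein, and mt-Rnr1, the 12S rRNA gene, lies upstream of TrnV.

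The 24 libraries were made from mtDNA of E14 cells, a line of mouse embryonic stem cells (ESCs) grown on feeder cells in medium with 2 kinase inhibitors and LIF, from mtDNA of brain and liver of C57BL/6J mice, and from synthetic mtDNA. The latter was amplified by PCR from standard nucleotides, carries no 5mC and stands for the unmethylated state, with no replicate. All native mtDNA came from purified, nuclease-treated mitochondria and was cut once before bisulfite treatment. E1, E2, B1, L1 and S1, the first and second ESC, first brain, first liver and synthetic preparations, were treated for 5, 15, 40 and 60 min. E3 was treated for 60 and 90 min, and B2 and L2 for 60 min, and a library is named by preparation and minutes (E1_60). Preparations are labelled as biological replicates, but neither the number of animals nor their age is given, and the ESC preparations come from a single line.

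Bisulfite turns unmodified cytosine into uracil and leaves 5mC, so the unconversion rate of a cytosine is the percent of covering reads that still show cytosine. It includes modified bases and incomplete conversion, and synthetic mtDNA gives unconverted reads without any 5mC. The study names a further possibility for the L strand. Copies of library products made from H-strand fragments without cytosine could map to the L strand and count as unconverted. These sources were not told apart here. The H and L strands of mtDNA differ in base composition. The L strand of mt-Rnr2 has the sequence of the rRNA itself, and its cytosines are those of the reference sequence, whereas cytosines of the H strand lie opposite its guanines. In nuclear DNA, enzymes of the DNMT family place 5mC mostly at CG sites, in which the cytosine is followed by guanine. CH sites are all the others.

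The libraries held 257028 to 2260572 calls over all listed cytosines, and mt-Rnr2 took 10936 to 129448 of them, 3.62 to 6.64% of a library. Sites covered by at least 10 reads were used. In the 60 min libraries, the median coverage of these sites lay between 19 and 185 reads (L strand) and between 33 and 136 reads (H strand). At these depths, 3 unconverted reads, taken as the fewest that show a rate, correspond to rates of 1.62 to 15.8% for the L strand and of 2.21 to 9.09% for the H strand, so single rates below this could not be told from 0. B2_60 was the shallowest on both strands and used 174 of the 269 L-strand sites, where S1_60 used all 269.

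4 stretches of the gene carry the results on single sites. They are shown 5′ to 3′ on their own strand from the RefSeq sequence of mm10 chromosome M, with the cytosines of the run or the single site in capitals. The L-strand stretches chrM:1638-1697, chrM:1095-1166 and chrM:1836-1873 hold the 3 runs of neighbouring cytosines that kept the most unconverted reads. The last is around a single site, nt 1766 of the H strand (chrM:1751-1781).
L-strand run from nt 1643: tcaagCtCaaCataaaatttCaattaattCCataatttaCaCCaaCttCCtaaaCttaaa
L-strand run from nt 1100: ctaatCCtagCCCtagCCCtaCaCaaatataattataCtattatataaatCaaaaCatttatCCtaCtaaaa
L-strand run from nt 1841: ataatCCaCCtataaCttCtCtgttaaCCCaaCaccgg
H-strand site nt 1766: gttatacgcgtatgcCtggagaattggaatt

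After 60 min, cytosines of mt-Rnr2 were almost completely converted on the H strand and largely converted on the L strand. On the L strand, the mean unconversion rate of the gene was lowest in B1_60 at 4.54%, had a median of 6.31% over the 7 native libraries and was highest in B2_60 at 8.63%, with 5.19% in S1_60. The synthetic library lay inside the native range. The rest of the L strand stood at 31.4 to 46.8% in the same libraries, and no library of the gene reached that range. The gene averaged 6.29% ± 1.26 (SD, n = 8) and the rest 35.1% ± 4.88, a difference of -28.9 percentage points that held in all 8 libraries (exact sign-flip permutation test, two-sided, p = 0.00781, the smallest possible, adjusted p = 0.0234 over 18 tests). The size of this difference rests on sites of the rest that stayed mostly unconverted, since over sites under 50% in a library it was -1.67 points. That filter uses the rates themselves and narrows the difference by construction, so it is not a test. The medians over sites differed by -5.83 points, with the gene lower in all 8 libraries (exact sign-flip permutation test, p = 0.00781).

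**Figure D1:**
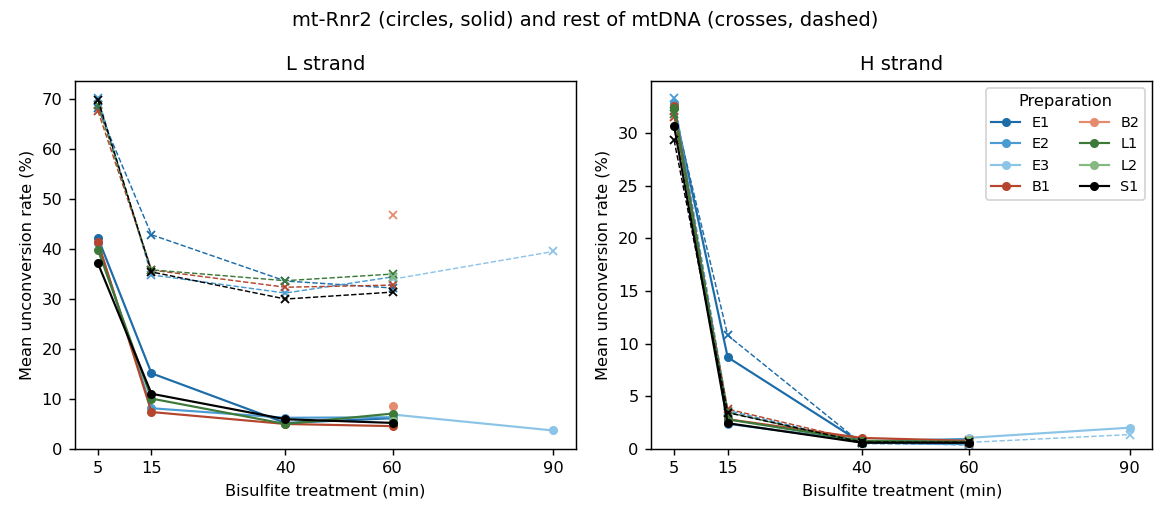
Mean unconversion rate (%) against minutes of bisulfite treatment, for the L strand (left) and the H strand (right, with its own scale). Circles with solid lines are mt-Rnr2 and crosses with dashed lines the rest of mtDNA, 1 colour per preparation. On the L strand the solid lines lie below the dashed ones at every duration, and from 40 to 60 min the gene stays between 4.54 and 8.63%.

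The H strand of the gene averaged 0.727% ± 0.195 (SD, n = 8) after 60 min, between 0.517% in B2_60 and 1.04% in E3_60, and the rest averaged 0.574% ± 0.144. The gene was higher in 5 of 8 libraries, a difference of 0.153 points within the spread between libraries (exact sign-flip permutation test, p = 0.195). On reads summed over sites it was 0.255 points (exact p = 0.00781), whereas the medians over sites differed by -0.200 points (exact p = 0.0313), so the direction depended on how sites were weighted.

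Time courses of mt-Rnr2 differed between its strands at the start. After 5 min, L-strand rates were 42.3% in E1, 41.2% in E2, 41.5% in B1, 39.9% in L1 and 37.2% in S1, against 67.7 to 70.4% in the rest of the strand. H-strand rates were 30.7 to 32.9% in the gene and 29.3 to 33.3% in the rest. After 15 min, the gene stood at 7.37 to 15.1% (L strand) and 2.38 to 8.69% (H strand), and E1_15 was the highest on both strands. At sites used at both durations, the L strand of the gene kept 18.8 to 38.2% of its 5 min rate after 15 min, and the rest kept 55.7 to 67.7%. H-strand sites of the gene kept 7.3 to 26.9% and those of the rest 10.97 to 33.6%, and the gene was lower in 5 of 5 preparations. Between 40 and 60 min, the 5 preparations changed by 0.395 points on the L strand (from 5.45% ± 0.578 to 5.85% ± 0.989, exact sign-flip permutation test, p = 0.563) and by -0.0426 points on the H strand (exact p = 0.563), and 5 preparations cannot give a p below 0.0625. The direction on the L strand was the opposite with a coverage minimum of 20 or 30 or on summed reads.

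In the only pair of libraries that extends to 90 min, E3_60 and E3_90, the 170 L-strand sites used in both had a mean of 3.66% and 3.67%. Over all its 225 used L-strand sites E3_60 had 6.87%, so the shared sites leave out sites of higher rate. Of the 13 cytosines of the run from nt 1643, described below, only 2 were used in E3_90. The 106 shared H-strand sites had a mean of 1.12% and 2.01%. The mean coverage of the gene was 92.5 reads in E3_60 and 33.7 in E3_90 for the L strand, and 50.4 and 16.4 for the H strand, and its part in these rates was not tested.

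Among the 2 rRNA genes and 13 protein-coding genes of mtDNA, mt-Rnr2 had the fourth-lowest L-strand rate after 60 min. COX1, a subunit of cytochrome c oxidase, stood at 2.58% ± 0.911 (SD, n = 8), COX3, another subunit, at 3.47% ± 0.917 and mt-Rnr1 at 5.14% ± 1.35. The next gene above mt-Rnr2 was ND3, a subunit of complex I, at 25.7% ± 13.5, and its lowest library, at 14.3%, was above the highest of mt-Rnr2. At the other end, ND6, the only one of these genes encoded on the opposite strand, stood at 99.5% ± 0.192. Rates this high include reads that were almost wholly unconverted, and such reads also count in the L-strand rates of mt-Rnr2. The L strand of mt-Rnr2 had the highest share of guanine of the 15 genes, 16.2% against 5.97% in ND6, and 11.9% in all mtDNA outside the gene. The same 4 genes with the lowest rates had the highest guanine shares, from 13.8 to 16.2%, which is a description over 15 genes of 1 sequence.

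**Figure D2:**
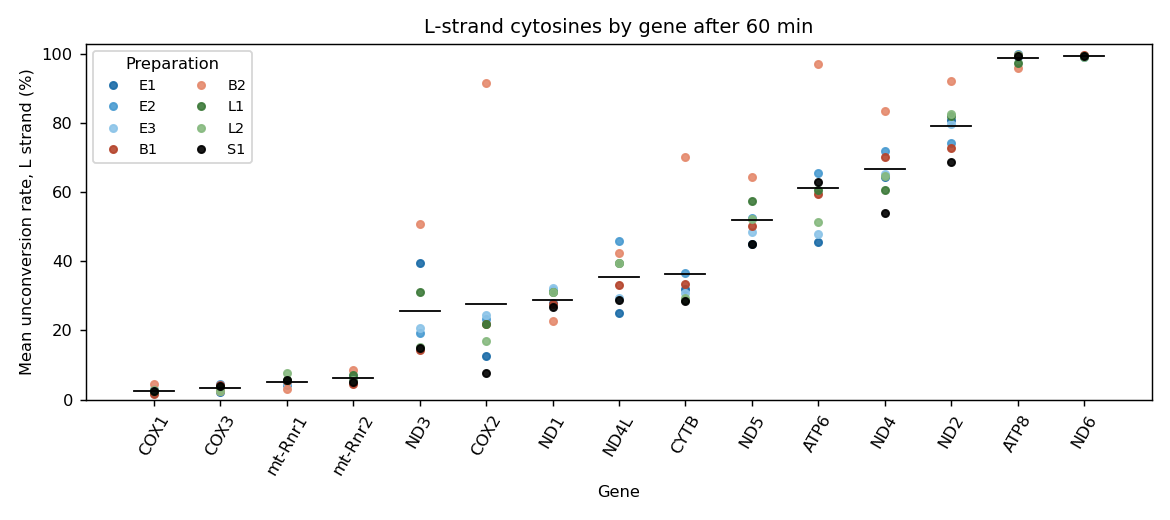
Mean unconversion rate (%) of L-strand cytosines in 15 mitochondrial genes after 60 min, ordered by their mean. Each point is 1 preparation and each black line the mean of 8. The 4 leftmost genes have means of 2.58 to 6.29%, the last of them mt-Rnr2, and the next, ND3, has 25.7%.

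Set against the other rRNA gene, mt-Rnr2 was 1.16 points higher on the L strand, in 5 of 8 libraries (exact sign-flip permutation test, p = 0.195), which is within the spread between libraries. At sites covered in all 8 libraries the same difference was 6.80 points (exact p = 0.00781), and without the 3 runs described below, which were outlined after the rates were seen and left out of mt-Rnr2 alone, it was -4.35 points. H-strand sites of mt-Rnr2 were 0.788 points lower than those of mt-Rnr1 (0.727% against 1.52% ± 0.703, lower in 7 of 8 libraries). This gave p = 0.0391 by the exact sign-flip permutation test, which did not pass after adjustment (adjusted p = 0.100).

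Rates on the L strand of mt-Rnr2 were not spread evenly. Of the 269 sites, 189 had a mean under 1% after 60 min and 224 a mean under 5%, and the median of the site means was 0.388%. A site mean is over the libraries that covered the site, and 163 sites were covered in all 8. Only 45 sites had a mean of 5% or more, and 40 of them were in 3 runs of at least 5 neighbouring sites, which were outlined after the rates were seen. No run reached 90%, and the highest site mean was 89.0% at nt 1667.

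The run from nt 1643 to 1692 held 13 cytosines in 50 bases and no guanine, so that the H strand has no cytosine there. After 60 min its mean was lowest in L2 at 52.5%, had a native median of 73.2% in L1 and was highest in E2 at 81.3%, with 75.1% in synthetic mtDNA. The synthetic library thus lay within the native range, and nt 1667, the site with the highest mean over libraries, was there unconverted in 136 of 144 reads (94.4%, 95% Wilson interval 89.4 to 97.2%). The mean over the 8 libraries was 69.8% ± 10.2, and over the 5 preparations with a time course this mean was 96.3% ± 2.95 (5 min), 81.4% ± 9.81 (15 min) and 73.0% ± 8.69 (40 min). From 40 to 60 min these 5 moved in both directions. E1 went from 67.7 to 75.9% and L1 from 71.0 to 73.2%. E2 went from 81.4 to 81.3%, B1 from 62.6 to 58.7% and S1 from 82.6 to 75.1%. Coverage of these sites after 60 min averaged 15.8 to 132 reads, and with a coverage minimum of 30 the mean was 59.5%.

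The run from nt 1100 to 1161 begins a few bases after the 5′ end of the gene and holds 16 cytosines, with guanine at 3.23% of its bases. It stood at 50.4% ± 4.18 (n = 5) after 5 min and at 15.99% ± 5.96 (n = 8) after 60 min, from 10.4% in B1 to 25.5% in B2, with 11.8% in S1. The third run, nt 1841 to 1868, holds 11 cytosines and 3.57% guanine and stood at 66.2% ± 7.01 after 5 min and 12.2% ± 8.42 after 60 min. Its value in L1_60, 32.2%, was far above the other native libraries, which lay between 5.70 and 12.4%, and S1_60 had 12.2%. None of the 31 CG sites of the strand lies in a run.

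Outside the runs, conversion went nearly to completion at most sites, and 5 sites there had means of 5% or more. The longest stretch of neighbouring sites with means under 5%, nt 1207 to 1639, held 72 cytosines, with a mean of 33.4% ± 2.86 (n = 5) after 5 min and 0.389% ± 0.299 (n = 8) after 60 min. Each library gives the mean of the sites it covered. Between nt 1494 and 1593, 3 of 15 sites were covered in all 8 libraries, and some had a value in S1_60 only. The 56 sites of nt 2210 to 2508 averaged 0.492% ± 0.364 and the 34 sites of nt 2519 to 2664 averaged 0.577% ± 0.725. Guanine made up 13.7 to 19.1% of these 3 stretches. In the 51 bases around a site, guanine averaged 5.01% for the 9 sites with means of 50% or more, 8.39% for the 36 sites of 5 to 50% and 16.6% for the 224 sites under 5%. Neighbouring windows share bases, so these averages are descriptions.

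**Figure D3:**
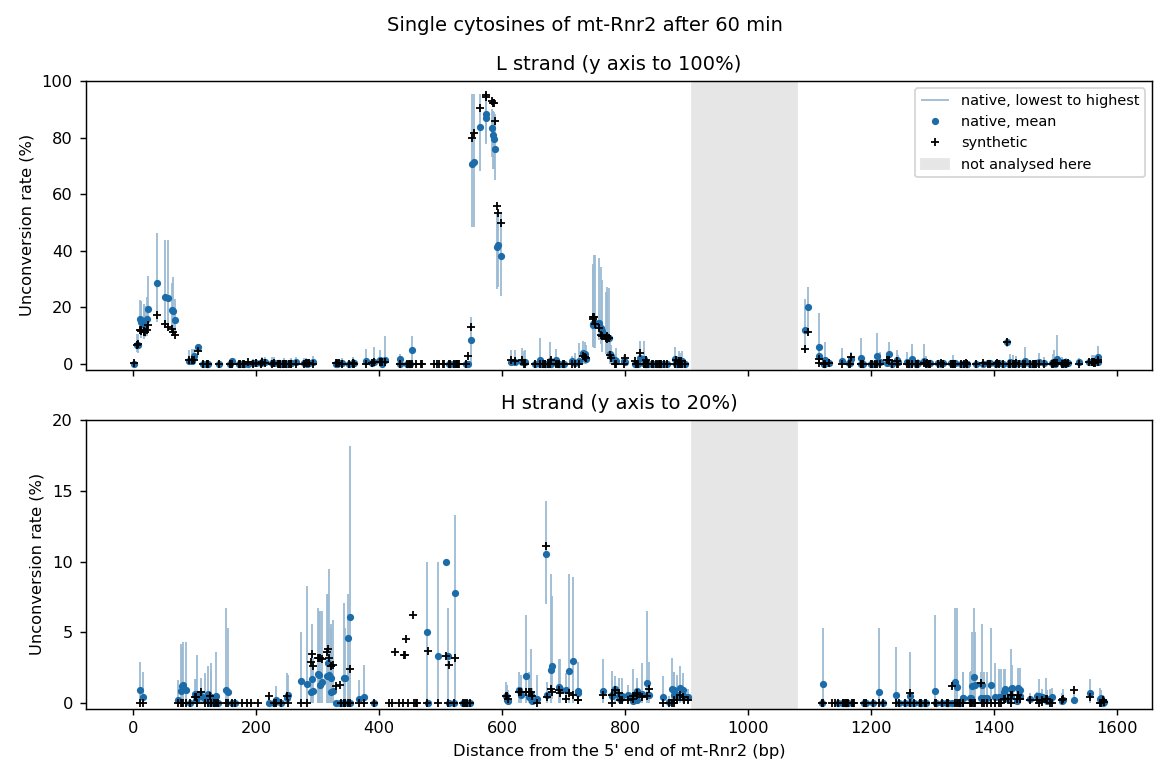
Unconversion rate (%) of each cytosine after 60 min against the distance from the 5′ end of mt-Rnr2 (bp), L strand on a scale to 100% and H strand on a scale to 20%. Blue points are means and blue lines the range of the native libraries, black crosses the synthetic library, and the grey area was not analysed here. The L strand shows 3 runs in the 5′ portion, with the highest site mean at 89.0%, and the H strand no site above 18.2% in any library.

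The uneven spread also separated the 5′ portion of the gene from the 3′ portion, each 1 of 2 parts of equal length. On the L strand, the 5′ portion averaged 11.3% ± 1.92 (SD, n = 8) and the 3′ portion 0.910% ± 0.523, a difference of 10.4 points found in 8 of 8 libraries (exact sign-flip permutation test, p = 0.00781, adjusted p = 0.0234). All 3 runs lie in the 5′ portion, and without them the difference was -0.277 points. The 75 cytosines of the gene that were not analysed, between nt 2003 and 2173, all lie in the 3′ portion. Beside this gap, the listed L-strand cytosines of nt 2173 to 2214 averaged 10.2%. The contrast between portions therefore holds for listed sites only. For H-strand sites, the 5′ portion averaged 1.04% ± 0.278 and the 3′ portion 0.417% ± 0.220, again with 8 of 8 libraries higher in the 5′ portion (difference 0.628 points, exact p = 0.00781, adjusted p = 0.0234). Without nt 1766 the H-strand difference was 0.511 points (exact p = 0.00781). The medians over sites of the 2 portions differed by -0.0375 points (exact p = 1).

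CG sites of the L strand had a mean of 0.465% ± 0.265 (SD, n = 8) after 60 min and CH sites 7.09% ± 1.44. CG sites were lower in 8 of 8 libraries, by 6.63 points (exact sign-flip permutation test, p = 0.00781, adjusted p = 0.0234). Without the 3 runs, which hold no CG site and were left out of the CH sites alone, CG sites were lower by 0.377 points, in 7 of 8 libraries. The highest rate of any L-strand CG site in any 60 min library was 7.70%. H-strand CG sites averaged 0.629% ± 0.452 and CH sites 0.744% ± 0.172, which did not differ beyond the spread between libraries (exact p = 0.391).

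On the H strand, 121 of the 216 sites were covered in all 8 libraries of 60 min. Of these, 97 had a mean under 1%, and their median was 0.538%. A single one stood above 5%, nt 1766, whose rates were 10.1% in E1, 7.0% in E2, 14.3% in E3, 10.8% in B1, 12.4% in B2, 9.70% in L1, 9.50% in L2 and 11.1% in S1. The native libraries spread on both sides of the synthetic one, in which 76 of 683 reads were unconverted (95% Wilson interval 8.98 to 13.7%). The mean was 10.6% ± 2.15, and the next site of the strand, nt 1410, had 2.95% ± 2.93.

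nt 1766 also had the highest mean of all 1756 H-strand sites of mtDNA covered in the 8 libraries. Of these, 7 had means of 5% or more, 1 in mt-Rnr2 and 2 in mt-Rnr1. After 5 min the site stood at 44.7 to 54.8%, after 15 min at 8.50 to 28.0%, after 40 min at 9.20 to 16.4% and in E3_90 at 13.5%. From 40 to 60 min it was lower in E2, B1 and S1 and higher in E1 and L1. The cytosine is the second of CCTGG, a match to the motif CCAGG or CCTGG, each the reverse complement of the other, which matches mtDNA 15 times. The second cytosine had a value on the H strand in 14 of these, and the other 13 had means of 0.163 to 1.2%. The second cytosine of the same match on the L strand, nt 1764, had 0% in the 7 libraries that covered it, with 10 to 68 reads each, too few to show a low rate.

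The remaining sites with the highest H-strand means, nt 1410, 1810, 1775, 1773 and 1394, had 2.19 to 2.95% after 60 min, and each ranged from at most 0.3% in its lowest library to between 6.70 and 9.10% in its highest. Their libraries thus spread as widely as the means themselves, and S1_60 had 0.6 to 3.8% at them. nt 1775 and 1773 are CG sites.

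**Figure D4:**
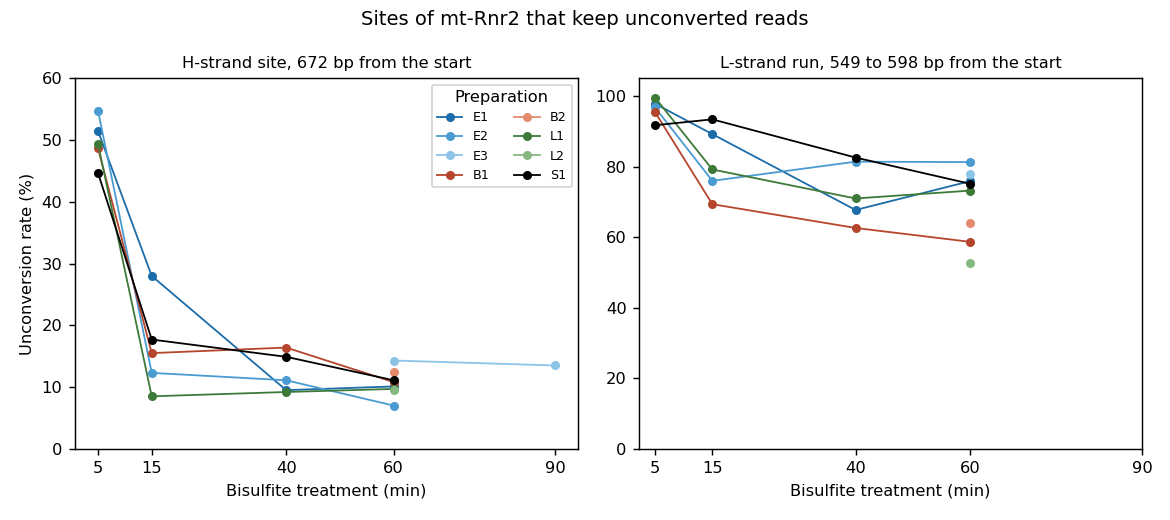
Unconversion rate (%) against minutes of treatment for H-strand site nt 1766 (left) and the mean of the L-strand run of 13 cytosines (right, other scale, libraries with at least 5 of its sites used), 1 line per preparation. After 60 min the synthetic preparation (black) lay inside the native range, at 11.1% and 75.1%. For the run it lay below the native range after 5 min and above it after 15 and 40 min. For nt 1766 it lay below that range after 5 min and inside it after 15 and 40 min.

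Native and synthetic mtDNA were compared to ask whether rates in the gene exceed those of DNA without 5mC. On the L strand, native libraries averaged 6.45% ± 1.27 (SD, n = 7) and S1_60 had 5.19%, a difference of 1.26 points with 6 of 7 native libraries higher (exact permutation test, two-sided, p = 0.375). A single synthetic preparation cannot give a p below 0.125. The sites used differed between libraries, and at sites covered in all 8 the difference was -0.0274 points (exact p = 1). H-strand rates of native libraries averaged 0.749% ± 0.200 and S1_60 had 0.576% (difference 0.173 points, exact p = 0.625). Neither strand differed beyond the spread between native preparations.

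Single sites gave no call either. The quasi-binomial model found 0 of 375 tested sites of mt-Rnr2 at an adjusted p under 0.05, with 5 at an unadjusted p under 0.05, and 0 of 3950 in all mtDNA (0.0% called). Fisher's exact test on summed reads also called 0 of 375, with 17 at an unadjusted p under 0.05, against 41 of 3950 in all mtDNA (1.04%). Of the 163 L-strand sites covered in all 8 libraries, 116 differed by less than 1 point between the native mean and S1_60. The native mean was higher at 109 sites, lower at 41 and equal at 13, with a median difference of 0.214 points. This split is not a test. A mean of 7 libraries lies above 0 once any of them has an unconverted read, whereas the single synthetic value can stay at 0. Neighbouring sites also share reads. The largest excess in native mtDNA was at nt 1132, with 28.6% in native and 17.5% in synthetic mtDNA, followed by nt 1150 and 1145, and all 3 are in the run from nt 1100. Native rates at nt 1132 ran from 14.7% in B1_60 to 46.2% in B2_60, the latter on 13 reads. The largest deficit was at nt 1686, with 41.3% and 55.7%, followed by nt 1680 and 1692, all 3 in the run from nt 1643. At 4 of these 6 sites the synthetic rate fell inside the native range, at nt 1686 and 1680 it lay above it, and none was called.

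No difference between ESC and tissue mtDNA passed the test. The ESC libraries averaged 6.44% ± 0.385 (n = 3) and the tissue libraries 6.47% ± 1.77 (n = 4) on the L strand, a difference of -0.0303 points (exact permutation test, p = 1). With a coverage minimum of 20 it was 2.62 points (exact p = 0.0286, the smallest possible), and with a minimum of 30 it was 0.215 points (exact p = 0.914). H-strand averages were 0.834% ± 0.274 and 0.684% ± 0.131 (exact p = 0.400). The quasi-binomial model called 0 of 369 sites, with 7 at an unadjusted p under 0.05, and 0 of 3895 in all mtDNA (0.0% called). Fisher's exact test called 0 of 369, with 10 at an unadjusted p under 0.05, and 1 of 3895 in all mtDNA (0.0257%).

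Coverage of the gene differed in opposite directions on its strands. After 60 min, L-strand cytosines of mt-Rnr2 were covered 1.98-fold more than the rest of the strand (log2 ratio 0.989 ± 0.264, higher in 8 of 8 libraries), and H-strand cytosines 6.28-fold less (log2 ratio -2.65 ± 0.384, lower in 8 of 8), each with p = 0.00781 in the exact sign-flip permutation test and an adjusted p of 0.0234. Among the 15 genes, mt-Rnr2 had the lowest H-strand coverage and the second-highest L-strand coverage. The other rRNA gene, mt-Rnr1, came next on both strands. Relative to the whole strand, its mean log2 ratio was -1.39 (H strand) and 0.504 (L strand), against -2.51 and 0.892 for mt-Rnr2. On the L strand mt-Rnr1 ranged from -0.487 to 0.940 between libraries. The H-strand deficit was larger in each of the 7 native libraries, at log2 ratios of -3.17 to -2.47, than in S1_60 at -1.97 (exact permutation test, p = 0.125, the smallest possible).

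Both departures were smaller after 5 min. In the 5 preparations with a time course, the mean log2 ratio of the L strand was 0.257 after 5 min and 1.08 after 60 min, and that of the H strand -1.23 and -2.49, with the same direction in 5 of 5 preparations each (exact sign-flip permutation test, p = 0.0625, the smallest possible). From 40 to 60 min the changes were 0.0628 and 0.0323, with 3 of 5 preparations higher on either strand (exact p = 0.688 and 0.750).

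Along the gene, H-strand coverage after 60 min was lowest between nt 1494 and 1593, at a log2 ratio of -6.99 with a median over libraries of 3.28 reads per site, and only 4 libraries had a used site there. The highest mean H-strand rate of any 100 bp window, 2.05%, was in this window, and the lowest, 0.130%, between nt 2294 and 2393. On the L strand, the window with the highest rate, nt 1594 to 1693 at 62.6%, was covered below the rest of the strand (log2 ratio -1.41), and the window with the lowest, nt 2394 to 2493 at 0.164%, above it (1.96). The part of coverage in the rates was not tested.

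**Figure D5:**
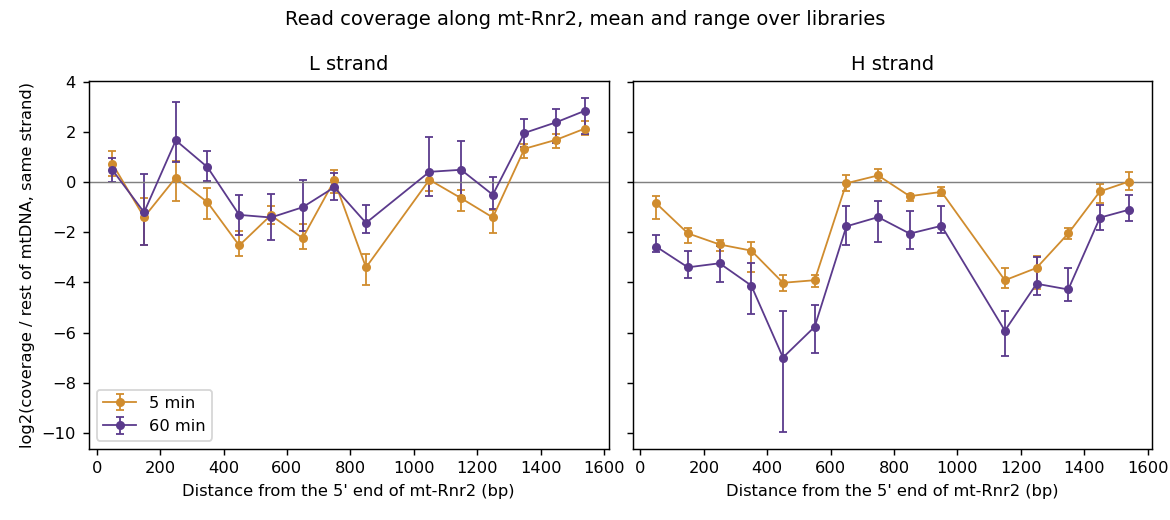
Coverage of 100 bp windows of mt-Rnr2 relative to the rest of mtDNA on the same strand (log2 ratio, 0 is equal) against the distance from the 5′ end of the gene (bp), for 5 min (orange, 5 libraries) and 60 min (purple, 8 libraries). Points are means and bars run from the lowest to the highest library. On the H strand, the 60 min means lie below 0 in every window and reach -6.99.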

How the data were processed

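Per the labels and the methods of the study, mtDNA was bisulfite-treated, made into PBAT libraries (random-primed adaptor tagging after conversion), sequenced on a MiSeq, trimmed with Trim Galore and mapped to mm10 mtDNA with Bismark in its PBAT mode, using first reads. Tool versions for these libraries are not given in the sources used here. For each cytosine the authors deposited the percent of unconverted reads, to 1 decimal, and the coverage as a count of reads, neither normalised nor filtered. Reads with 90% or more of their cytosines unconverted were dropped in the study, a step that single-site values do not allow, and the L-strand rate of 99.5% in ND6 shows that the deposited values include such reads. All 276 pairs of libraries differed in coverage. Reads were amplified by PCR without molecular identifiers, so intervals and the 3-read limit cover counting error only.

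Unconverted reads were taken as percent times coverage, rounded. Sites with at least 10 reads were used, a region's rate is the mean over its sites, and its coverage ratio uses all listed sites. Region means were compared over preparations by two-sided exact permutation tests, 18 in all with Benjamini-Hochberg adjustment. Single sites were tested with a quasi-binomial logistic model over preparations, adjusted over all mtDNA sites. Tested on simulated data of the native and synthetic libraries (3950 sites), it recovered 49.3% of 67 sites raised by 10 points, 89.6% of 67 raised by 30 and 95.5% of 66 raised by 60, with 11 false calls. For ESC against tissue (3895 sites) these were 49.3, 70.1 and 95.5%, with 0 false calls. Python 3.11.15, numpy 2.4.6, pandas 2.3.3, scipy 1.17.1 and statsmodels 0.14.6 were used.

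Groups were taken from the labels. Named sites are the 6 highest H-strand sites at 60 min and the 4 highest at 5 min among those covered in every library, the 3 longest L-strand runs of 90% or more and under 5%, the 3 L-strand sites where native exceeded synthetic mtDNA most and the 3 where it fell short most, called sites, and the extreme 100 bp windows. A further result on the L strand is not reported here. The gene, its lists and its rules were chosen with earlier results of these data known. Alternatives were a coverage minimum of 20 or 30, summed reads, sites covered in all libraries, other coverage summaries, left-out preparations, a replicate block and Fisher's exact test. Runs of 5% or more, medians over sites, sites under 50% and leaving out runs or nt 1766 were added after the data were seen.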

Additional observations from a re-analysis of the deposited data

Results flagged for a closer look

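Among 33 groups of 4 to 7 native values examined, 6 had a library far from the others, and chance alone marks about 1 group in 20. E1_15 stood at 8.69% on the H strand of mt-Rnr2, where the other native libraries of 15 min lay between 2.38 and 2.81%. In the rest of the H strand E1_15 also had the highest rate of that duration.

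B2_60 had the widest gap between the L strand of the gene and the rest, -38.2 points against -28.8 to -26.1 in the other native libraries, and it stood apart likewise within the tissue libraries, where the others lay between -28.8 and -27.9. This library was the shallowest of the 60 min libraries, and without it the mean difference over the other 7 was -27.5 points.

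L1_60 had 32.2% in the L-strand run from nt 1841, where the other native libraries lay between 5.70 and 12.4%. L2_60 had an H-strand coverage log2 ratio of -3.17, against -2.51 to -2.47 in the other tissue libraries. E2_40 had 6.22% on the L strand of the gene, against 4.97 to 5.18% in the other native libraries of 40 min.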

How the results depend on the processing

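The 6 comparisons that passed the test (gene against rest, 5′ against 3′ portion and CG against CH on the L strand, 5′ against 3′ portion on the H strand, and coverage on both strands) kept their direction and their side of the threshold under all 68 settings of coverage minimum, weighting, shared sites, coverage summary and left-out preparations. Among settings chosen after seeing the data, leaving out the 3 runs gave -0.277 points between the L-strand portions and -4.35 points against mt-Rnr1, leaving out the run around nt 1667 alone gave -2.56 points against mt-Rnr1, which kept its own sites of high rate in both, and medians over sites gave 0.325 points between the L-strand portions, -0.0375 between the H-strand portions and -0.200 for the H strand of the gene against the rest. By construction, these leave out or give little weight to the sites with the highest rates. The H-strand median of the gene was also 0 in each 60 min library, at lower coverage than the rest.

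Comparisons that had not passed changed more. Native minus synthetic on the L strand was -1.41 points with a coverage minimum of 30, -0.342 on summed reads and -0.0274 at shared sites. ESC minus tissue on the L strand was 2.62, 0.215 and 0.0970 points with minimums of 20 and 30 and at shared sites, and -0.672 to 0.690 with 1 preparation left out. The change from 40 to 60 min on the L strand was -0.455, -2.71 and -0.861 points with minimums of 20 and 30 and on summed reads, and -0.0293 to 0.676 with 1 preparation left out, where the H strand gave -0.110 to 0.0157. CG minus CH on the H strand was 0.0127 points with a minimum of 30. The H strand against the rest was 0.255 points on summed reads. mt-Rnr2 minus mt-Rnr1 was 6.80 points (L strand) and -0.416 points (H strand) at shared sites. On the H strand it was -0.962 to -0.620 with 1 preparation left out, and lost its unadjusted call without E3, B1, B2, L1 or S1. The causes were not tested.

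Deviations of same-numbered native preparations from their group mean correlated at r of -0.183 to -0.0775 for ESC with brain or liver over 2902 sites. For brain with liver r was 0.189 under either number. With 2 preparations per tissue these are a single value by construction, so the check cannot decide whether numbers pair the preparations. With the replicate block, ESC minus tissue was -0.247 points for the L strand and 0.0475 points for the H strand (exact p = 0.889 and 0.778) and 0 sites were called, as without it. Leaving out the synthetic preparation leaves no native against synthetic comparison, so it was not run. Depth limits rates below about 3 reads per site, and most of all the H strand between nt 1494 and 1693.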

Other observations

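The 4 H-strand sites of mt-Rnr2 with the highest means after 5 min, nt 1254 at 57.2% ± 14.9 (SD, n = 5), nt 2254 at 50.7% ± 14.3, nt 1485 at 50.6% ± 13.8 and nt 2252 at 50.2% ± 10.2, were at 0% in every 60 min library that covered them, 8 for nt 1254, 5 for nt 1485 and 2 for the others, with 10 to 54 reads each, too few to show a low rate. nt 1766 stood at 49.8% ± 3.72 after 5 min. The 207 H-strand sites covered in all 5 libraries of 5 min had a median of 31.6%. Coverage of these 4 sites after 5 min was 16 to 106 reads. The 2 sites at nt 2254 and 2252 lie in a stretch of consecutive cytosines.

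The L strand of mt-Rnr2 has 5 stretches of at least 25 bases without guanine, of 102 in all mtDNA, 10 of which are at least as long as the longest of the gene, 58 bases. In the 4 longest of the gene, of 58, 56, 42 and 39 bases, the listed cytosines had means of 69.8%, 17.97%, 10.2% and 10.04% after 60 min over 8 libraries, and in the fifth, of 25 bases with 2 cytosines, 0.731%. This was examined after the rates of the runs were seen and is a description of 5 stretches.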
